A study of Mus musculus with 8 samples.

Results

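The cell cycle and DNA replication genes were followed across 8 cultures of mouse bone marrow derived macrophages. The set was a list of 53 genes chosen by name, 23 of G1/S and DNA replication and 30 of G2 and mitosis (G2/M). Array probe sets whose annotation named only 1 gene were found for 51 of them, 95 probe sets of the 22626 that were not controls. No such probe set was listed for Ccnb1 or Cdca8, and neither is analysed here. Where a gene had more than 1 such probe set, the one with the highest mean log2 signal stood for it. The representative passed the signal filter for 22 of the 23 G1/S genes, all but Ccne2, and for 28 G2/M genes.

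Marrow cells had been cultured for 7 days in M-CSF (50 ng/ml), the growth factor of macrophages. The study crossed genotype with IFN-gamma, a cytokine that activates macrophages, and with calcitriol, the hormone made from vitamin D. The Vdr-/- groups were IFN-gamma + calcitriol, IFN-gamma, calcitriol and untreated, and wild-type cells had the same 4 groups. The labels name the knockout allele, Vdr tm1 Rge, on the untreated Vdr-/- sample only. Each group had 1 array, treated cells had 24 to 48 hours of culture, and no single time or animal age was given. With 1 array a group, the tests set array pairs against each other, and the number of arrays limits the precision.

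A cell that commits to division first switches on genes for DNA synthesis, many of them under E2F transcription factors, and later those for mitosis. Mitotic genes are repressed in resting cells by the DREAM complex, which binds CHR elements in their promoters, and NF-Y bound to CCAAT boxes drives them in cycling cells. Bone marrow macrophages divide in response to M-CSF, and IFN-gamma is known to restrain that division. In total RNA, fewer dividing cells and less RNA per cell cannot be told apart.

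Promoter sequences from the RefSeq table (GRCm38.p6) show how far the 2 gene groups differ in these letters, independently of the arrays. The 150 bases before the start of transcription are given 5′ to 3′ on the gene's own strand, for 4 G2/M genes and for Pcna of the G1/S group. They lie at chr2:164769779-164769928 (plus strand, Ube2c), chr9:70421555-70421704 (minus, Ccnb2) and chr10:69352913-69353062 (minus, Cdk1). Top2a lies at chr11:99024190-99024339 (minus) and Pcna at chr2:132253181-132253330 (minus). Capitals mark CCAAT or its reverse complement ATTGG, the CHR letters TTTGAA or TTCAAA, and the E2F letters TTTCGCGC.
Ube2c: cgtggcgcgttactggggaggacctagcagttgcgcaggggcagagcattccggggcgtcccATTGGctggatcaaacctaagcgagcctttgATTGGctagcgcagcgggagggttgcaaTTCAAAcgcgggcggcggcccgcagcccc
Ccnb2: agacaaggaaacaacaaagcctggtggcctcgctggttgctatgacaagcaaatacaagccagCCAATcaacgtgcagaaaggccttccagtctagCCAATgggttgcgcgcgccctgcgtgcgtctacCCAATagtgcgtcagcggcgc
Cdk1: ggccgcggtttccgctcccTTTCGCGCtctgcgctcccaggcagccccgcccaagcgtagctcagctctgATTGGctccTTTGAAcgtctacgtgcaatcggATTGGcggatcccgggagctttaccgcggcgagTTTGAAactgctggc
Top2a: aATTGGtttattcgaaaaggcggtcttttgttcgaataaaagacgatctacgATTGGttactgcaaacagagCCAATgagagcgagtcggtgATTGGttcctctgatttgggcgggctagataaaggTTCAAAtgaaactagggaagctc
Pcna: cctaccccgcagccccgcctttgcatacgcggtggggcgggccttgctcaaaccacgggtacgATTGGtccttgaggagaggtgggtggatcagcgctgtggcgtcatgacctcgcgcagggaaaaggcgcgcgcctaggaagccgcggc

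In these windows Top2a held 4 CCAAT boxes, Ccnb2 held 3, Ube2c and Cdk1 held 2 each, and Pcna held 1. CHR letters were found in Cdk1 at 2 places and in Ube2c and Top2a at 1 place each. None were found in the Ccnb2 window, whose CHR letters lay farther upstream, within 250 bases of the start. Over the 250 upstream bases, on both strands, TTTGAA was found in 11 of 27 G2/M promoters (40.7%), in 2 of 25 G1/S promoters (8%) and in 16% of the 32851 promoters of the table. CCAAT was found in 85.2% of the G2/M promoters, 52% of the G1/S promoters and 33.8% of all. At least 2 CCAAT boxes stood in 51.9%, 24% and 10.1% of these promoters. The E2F letters TTTGGCGC, TTTCCCGC, TTTGCCGC or TTTCGCGC were in 7.41% of the G2/M promoters, 24% of the G1/S promoters and 1.86% of all. These promoters belong to 26 of the 30 G2/M genes and 20 of the 23 G1/S genes, none of the motifs contains another, and a match describes letters, not binding.

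Array medians were 53.4 to 68.2 signal units after the authors' scaling, and log2 signals correlated between arrays with r of 0.741 to 0.897. The Gapdh 3'/5' control ratio, which rises with truncated RNA, was 4.82 on the array labelled Vdr-/- untreated, 3.06 on that of Vdr-/- cells with IFN-gamma and 7.67 on that of wild-type cells with calcitriol. The remaining 5 arrays had 0.853 to 1.65. Macrophage markers were never at the floor (7 of 7 genes), and 6 of 11 granulocyte and progenitor markers passed the filter, with summed signals of 155.3 to 292.2. Vdr went against the labels on the untreated pair, with a signal of 90.3 on the array labelled Vdr-/- untreated against 6.7 on its wild-type counterpart. In the other pairs Vdr was lower in Vdr-/-, with signals of 25, 45.6 and 2.6 under both agents, IFN-gamma alone and calcitriol alone, against 226.7, 84.4 and 51.5 in wild type. Whether the probe set lies in the deleted part was not tested, and arrays are called by their labels throughout.

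The wild-type IFN-gamma + calcitriol array carried the highest signals of most G2/M members. Of the 28 G2/M genes, 17 (60.7%) had their highest signal on this array, against 12.3% of all 18058 tested probe sets. Of the 22 G1/S genes, 8 (36.4%) did. Each gene's log2 signal was also taken relative to its mean over the 8 arrays. On that scale the G2/M median was 1.02 on this array. It was 0.29, 0.47, 0.32 and -0.67 on the Vdr-/- arrays with both agents, IFN-gamma, calcitriol and no agent, and 0.23, -0.46 and -0.77 on the wild-type arrays with IFN-gamma, calcitriol and no agent. The 2 untreated arrays were thus the lowest for these 28 G2/M genes, and the G1/S genes had a narrower range. Their medians were 0.04, -0.20, 0.27 and -0.07 on the same Vdr-/- arrays, and 0.65, 0.01, -0.09 and -0.31 on the wild-type arrays with both agents, IFN-gamma, calcitriol and no agent. All tested probe sets stayed within -0.04 and 0.14 on every array. For 36 further G2/M genes that were not members, the medians were 0.09 on the Vdr-/- and -0.32 on the wild-type untreated array. Their highest median, 0.54, was on the wild-type IFN-gamma + calcitriol array, and their lowest, -0.56, on the wild-type calcitriol array.

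**Figure D1:**
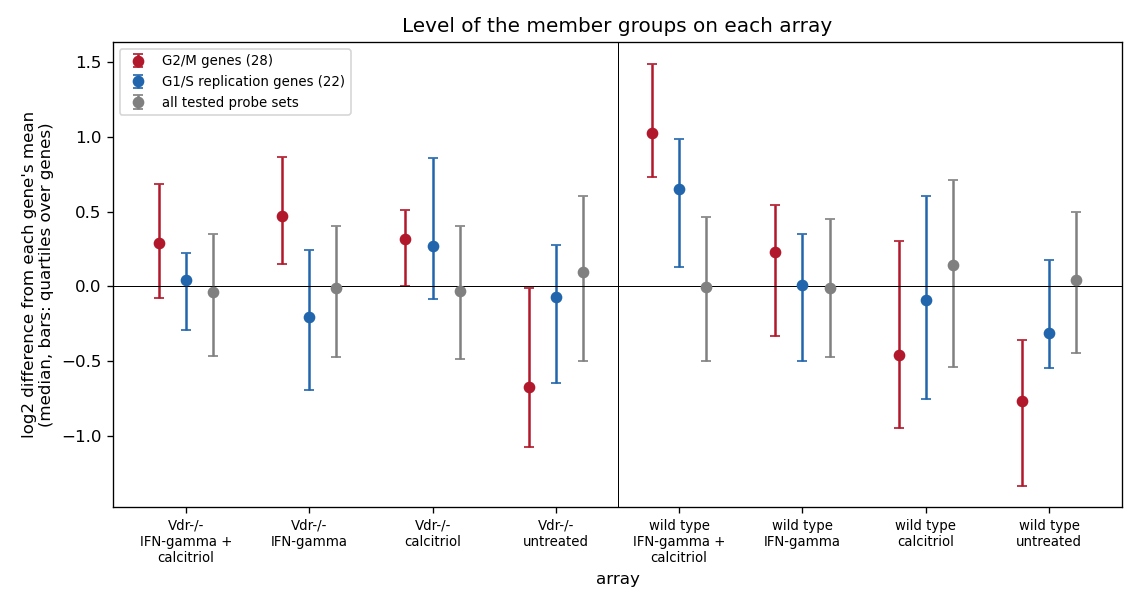
Median log2 difference from each gene's own 8-array mean (y axis) on each array (x axis), for 28 G2/M genes (red), 22 G1/S genes (blue) and all 18058 tested probe sets (grey), with bars for the quartiles over genes. The G2/M median is highest, at 1.02, on the wild-type IFN-gamma + calcitriol array and lowest, at -0.77, for untreated cells labelled wild type.

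The 17 G2/M genes included Cdk1, the mitotic kinase, its partners Ccna2 and Ccnb2, Mki67, the proliferation marker Ki-67, and Top2a, which untangles sister chromatids. They also included the centromere histone Cenpa, the kinetochore motor Cenpe, the checkpoint kinase Bub1b, the mitotic spindle protein Tacc3 and the condensin subunits Smc4 and Ncapd2. The 8 G1/S genes were Mcm7 of the replicative helicase, Rrm2 of ribonucleotide reductase, the polymerase alpha and primase subunits Pola1 and Prim1, and Fen1, which trims Okazaki fragments. Uhrf1, which maintains DNA methylation, the licensing factor Cdt1 and its inhibitor Gmnn completed the group. Among other cell cycle genes that were not members, 9 of 36 G2/M genes (25%) and 5 of 28 G1/S genes (17.9%) had their highest signal there. Counted over every tested member probe set, the numbers were 24 of 43 for G2/M and 11 of 40 for G1/S. A group with 1 array gives this peak no replicate check. Erythroid markers, of which Klf1 and Epor alone of 6 were tested, also had their highest summed signal on that array, 192.8 against 14.8 to 108.9 on the other 7. The summed macrophage markers were lowest there, at 36033.5 against 43053.3 to 58686.6, though only 2 of the 7 genes were lowest on that array. Relative to each gene's mean, their median there was -0.26 log2, against -0.32 to 0.25 on the other arrays. The Gapdh 3'/5' ratio was 1.65. The part of these cell types or of RNA quality in the peak was not tested. The calcitriol array of the Vdr-/- cells held the highest signal of 7 of the 22 G1/S genes (31.8%, against 9.73% of all tested probe sets), Pcna and Tk1 among them.

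**Figure D2:**
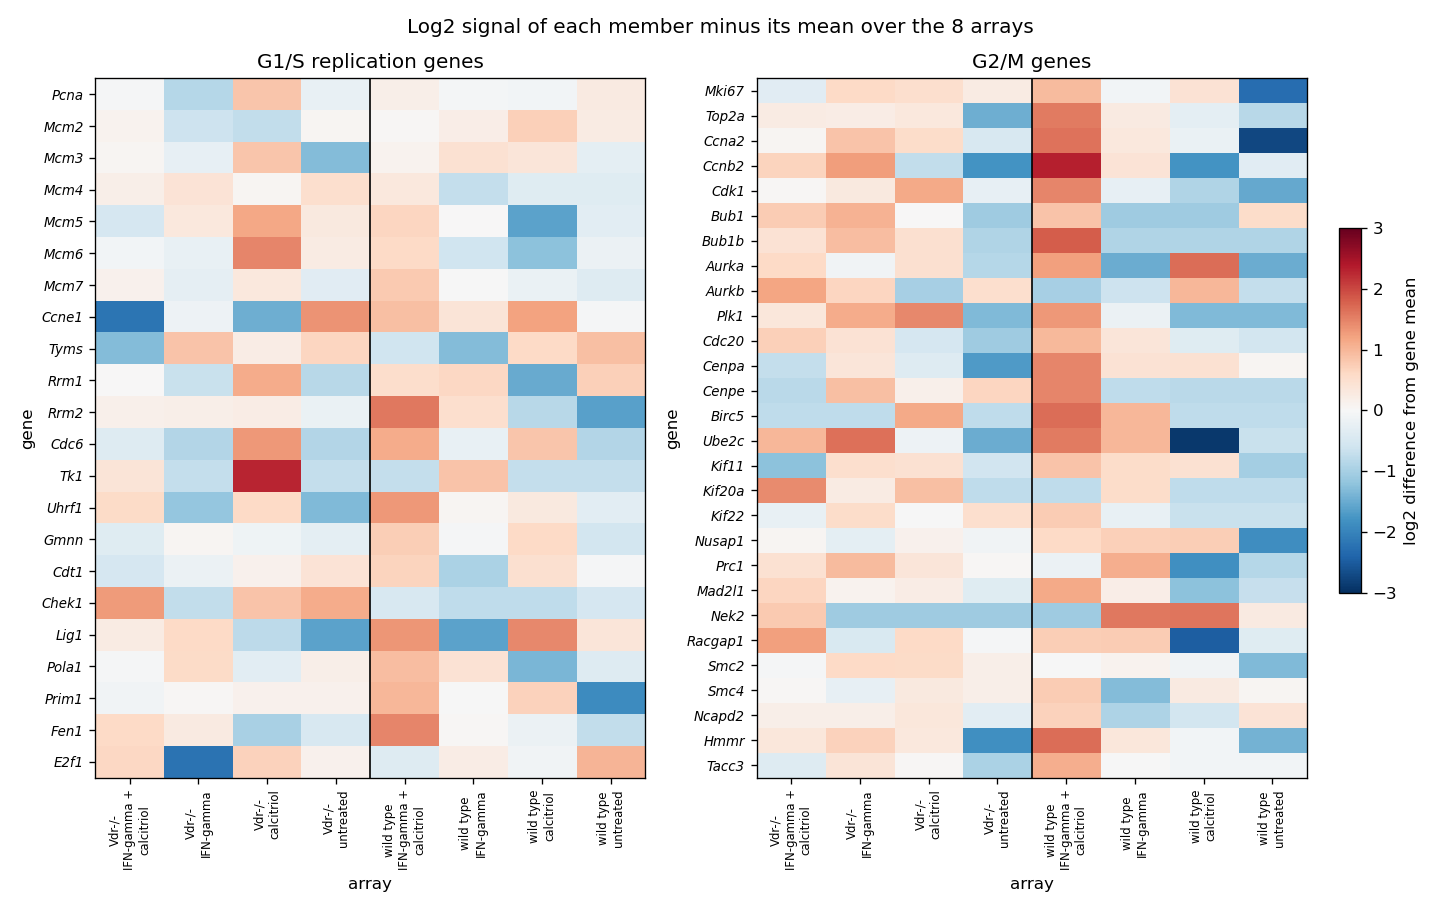
Log2 signal of each member minus its mean over the 8 arrays (colour, red above and blue below the mean), with genes as rows and arrays as columns, G1/S genes in the left panel and G2/M genes in the right. In the right panel the wild-type IFN-gamma + calcitriol column is red for most genes, and 17 of the 28 have their highest signal there.

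With IFN-gamma, 2 mitotic genes and 1 replication gene rose in the test over 4 array pairs, and most mitotic genes had a higher mean. At an adjusted p under 0.05 limma called 2 of 28 G2/M genes higher, Ube2c and Ccnb2, and 1 of 22 G1/S genes, Fen1, where it called 3.43% of all tested probe sets in either direction and 2.15% higher. On the representative probe sets, the log2 change was above 0 for 27 of the 28 G2/M genes (96.4%) and 12 of the 22 G1/S genes (54.5%). Of all tested probe sets 44.2% were above 0. Over the 83 tested member probe sets of both lists, 56 were above 0 and 27 below. The median log2 change was 0.74 for G2/M, 0.14 for G1/S and -0.08 for all tested probe sets. At an unadjusted p under 0.05, 9 G2/M genes were higher and 0 lower, and 2 G1/S genes were higher and 1 lower, where 6.16% and 6.27% of all tested probe sets were higher and lower.

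Values of single genes follow in the order of the pairs Vdr-/- without calcitriol, Vdr-/- with it, wild type without it and wild type with it. Ube2c, the ubiquitin-conjugating enzyme that works with the anaphase-promoting complex, had signals of 360.5, 229.4, 231 and 341.1 with IFN-gamma, against 41.3, 103.6, 72.7 and 7 without it. All 4 arrays with the cytokine were above all 4 without it. The fitted change was 2.60 log2 (SE 0.475, 6.06-fold, limma adjusted p = 0.00112). Ccnb2, a B-type cyclin that activates Cdk1 at mitosis, had signals of 130.1, 86.2, 72.3 and 273.1 with IFN-gamma, against 2.9, 32.6, 42.6 and 3.5 without it. The groups did not overlap here either, and 2 of the arrays without IFN-gamma were below the floor of 15.5 signal units. The fitted change of Ccnb2 was 2.34 log2 (SE 0.631, 5.08-fold, limma adjusted p = 0.0362), and its size depends on that floor.

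Fen1 had signals of 857.7, 1070.5, 728.1 and 1968.8 with IFN-gamma, against 510.4, 363.6, 425.3 and 627.4 without it. It was the only G1/S gene whose 4 arrays with IFN-gamma all lay above the 4 without. Its change was 1.18 log2 (SE 0.234, 2.27-fold, limma adjusted p = 0.00252). The other Fen1 probe set gave 1.08 log2 (limma adjusted p = 0.404), with overlapping groups. Ccna2, the cyclin of S phase and mitotic entry, had signals of 186.4, 107.7, 128.4 and 317.4 with IFN-gamma on its representative probe set, against 74.1, 152.4, 8.4 and 90.7 without it. The groups overlapped through the Vdr-/- pair with calcitriol, and the change was 1.42 log2 (limma adjusted p = 0.150). The second Ccna2 probe set read 171.9, 141.9, 79.7 and 257.5 with IFN-gamma, against 58.3, 119, 4.3 and 18.9 without it. It was higher in every pair, by 1.99 log2 (SE 0.557, 3.96-fold, limma adjusted p = 0.0482). With this probe set, 4 of the 83 tested member probe sets were called higher.

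**Figure D3:**
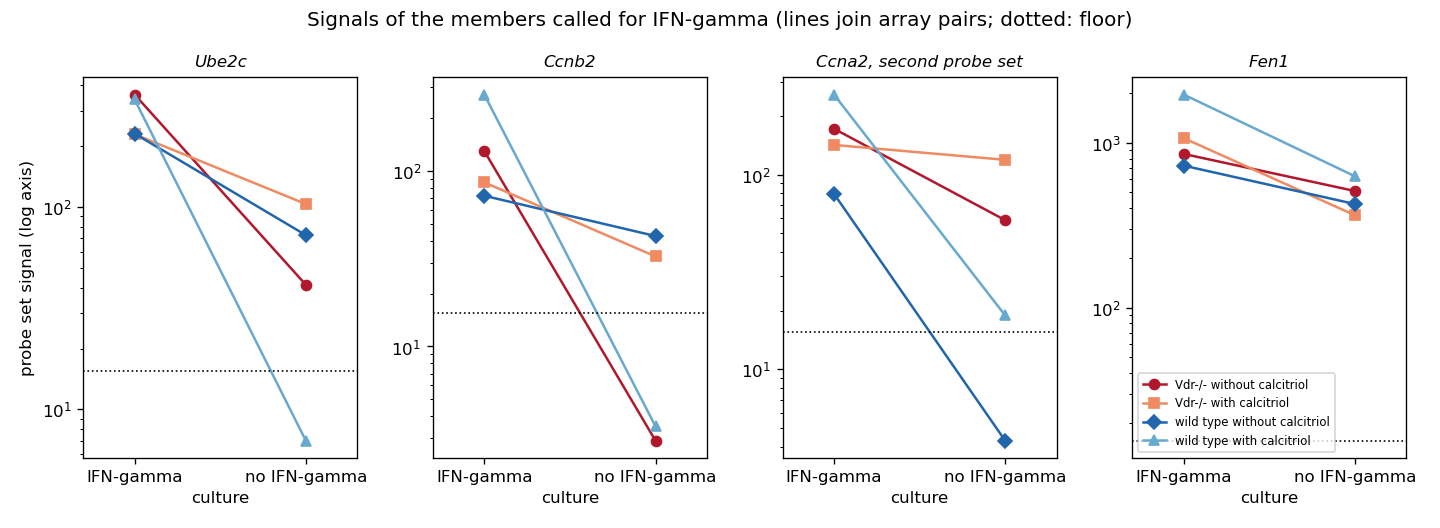
Probe set signal (y axis, log scale) with and without IFN-gamma (x axis) for the 4 member probe sets called at an adjusted p under 0.05, with lines joining the 4 array pairs and a dotted line at the floor of 15.5. Ube2c, Ccnb2 and Fen1 show no overlap between the arrays with and without IFN-gamma.

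Each of these calls rested on several pairs. Without the wild-type pair with calcitriol, whose array lacking IFN-gamma had the 3'/5' ratio of 7.67, the changes were 1.98 log2 for Ube2c, 1.75 for Ccnb2, 1.03 for Fen1 and 1.39 for the second Ccna2 probe set. The limma adjusted p-values were then 0.220, 0.523, 0.190 and 0.547. The adjusted p of Ube2c was 0.376 without the Vdr-/- pair lacking calcitriol and 0.130 without the wild-type pair lacking it, and that of Fen1 was 0.134 and 0.0825. The Vdr-/- pair with calcitriol was the only pair whose removal kept Ube2c (limma adjusted p = 0.00412) and Fen1 (0.0464) under the threshold. The Ccnb2 call was lost with any pair left out (limma adjusted p of 0.105 to 0.571), as was that of the second Ccna2 probe set (0.0713 to 0.547). Without both arrays of the highest 3'/5' ratios, the changes were 1.71 log2 for Ube2c, 1.71 for Ccnb2 and 1.45 for Fen1, with adjusted p of 0.276, 0.564 and 0.282. The number of probe sets called in all then fell to 53, against 619 with all 8 arrays. This fit also used additive terms for genotype, calcitriol and IFN-gamma in place of array-pair blocks, so the model and the arrays changed together.

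Other mitotic genes did not reach the adjusted threshold. Mki67 had signals of 113.4, 59.1, 71.1 and 146.7 with IFN-gamma, against 88.9, 106.3, 5.4 and 101.8 without it, and its change was 0.56 log2 (limma adjusted p = 0.753). Its groups overlapped, and the low value of 5.4 was that of untreated wild-type cells by label. The Mki67 change was 0.01 log2 without the wild-type pair lacking calcitriol and 1.03 without the Vdr-/- pair with calcitriol. Top2a had signals of 143.4, 145.5, 147 and 360.3 with IFN-gamma, against 44.2, 153.2, 68.4 and 99.3 without it, a change of 1.15 log2 (limma adjusted p = 0.173). Cdk1 had 168.5, 139.1, 116.2 and 377.7 with IFN-gamma, against 115.1, 300.1, 46.9 and 73.5 without it, a change of 0.78 log2 (limma adjusted p = 0.522) that ran between 0.25 and 1.41 with a pair left out. In both, the Vdr-/- pair with calcitriol ran the other way from the other 3 pairs. Cdc20 activates the anaphase-promoting complex, and Hmmr is a spindle protein. On their representative probe sets both joined Ube2c and Ccnb2 in having all 4 arrays with IFN-gamma above all 4 without. Their changes were 1.24 log2 (limma adjusted p = 0.0992) and 1.52 log2 (0.237). These 4 of 28 genes (14.3%) compare with 3.11% of all tested probe sets and with 1 of 22 G1/S genes. Other tested probe sets of Cdc20 were at 1.05 and 0.09 log2, each higher in 2 of the 4 pairs. Those of Hmmr were at -0.15, 0.23 and 0.66 log2, higher in 2, 3 and 3 pairs. In 7 of 28 G2/M genes (25%) the signal was higher in each of the 4 pairs, against 8.23% of all tested probe sets. The further 3 were the motor Kif20a, the midzone bundler Prc1 and the spindle checkpoint protein Mad2l1. The other tested Prc1 probe set was higher in 3 of the 4 pairs. Smc4 was the 1 G2/M gene with a change below 0 on its representative probe set, at -0.38 log2. Its other probe sets were at 0.73 and 0.23 log2. Other tested probe sets of Bub1, Hmmr, Kif11 and Kif22 were below 0.

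Replication genes showed no shared direction with IFN-gamma. Pcna, the sliding clamp of DNA polymerase, had signals of 2028.3, 3598.9, 3518.6 and 4173.1 with it, against 3143.4, 6621.9, 4429.2 and 3482.8 without it. The groups overlapped, and the change was -0.40 log2 (limma adjusted p = 0.534). Rrm2 had 173.6, 170.8, 219.6 and 464.1 with IFN-gamma, against 134.8, 179.9, 50 and 87.2 without it, and gave the largest G1/S change, 1.21 log2 (limma adjusted p = 0.133). On this probe set the low Rrm2 values were those of wild-type cells without IFN-gamma. Other tested probe sets of Rrm2 were at 0.70 and -0.31 log2, each higher in 2 of the 4 pairs. The lowest G1/S change on a representative probe set was that of the thymidylate synthase gene Tyms, at -1.19 log2.

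Helicase subunits were close to 0 on their representative probe sets. Mcm2 had signals of 49.8, 83.1, 88.6 and 78.5 with IFN-gamma, against 80, 46.4, 91.2 and 126.3 without it, a change of -0.14 log2 (limma adjusted p = 0.945). Mcm5 had 71.4, 40.4, 57.8 and 89.4 with IFN-gamma, against 69.8, 126.9, 46 and 18.7 without it, a change of 0.24 log2 (limma adjusted p = 0.925). Both overlapped between the groups, and both changed sign under other settings. The other Mcm2 probe set was at 1.14 log2 (limma adjusted p = 0.499), that of Mcm4 at 0.12 and that of Mcm6 at -0.49. Those of Mcm3 ran from -0.64 to 0.08 log2, and those of Mcm7 from -0.77 to -0.02.

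Most regulators and salvage enzymes of G1/S were below 0 on their representative probe sets, and none was called. Cdt1, at -0.49 log2 (limma adjusted p = 0.373), was the 1 G1/S gene lower at an unadjusted p under 0.05. Its other tested probe set was at -0.09. Chek1 and Cdc6 were at -0.35 and -0.19 log2, and Gmnn was at 0.19. Ccne1, a cyclin that drives entry into S phase, had 64.4, 13.1, 93.6 and 133.1 with IFN-gamma, against 180.6, 25.7, 70 and 165.9 without it (-0.53 log2, limma adjusted p = 0.759). E2f1, a transcription factor of G1/S genes, had 18.4, 132, 99.5 and 66 with IFN-gamma, against 93.9, 138.8, 174 and 79.9 without it (-0.88 log2, limma adjusted p = 0.514). On this probe set E2f1 was lower with IFN-gamma in each of the 4 pairs, although the groups overlapped. The share of all tested probe sets lower in each pair was not counted. The other E2f1 probe set was higher in 3 of the 4 pairs, at -0.13 log2 (limma adjusted p = 0.968). Tk1, the thymidine kinase of S phase, had 3.3, 32.9, 46 and 7.3 with IFN-gamma, against 6.5, 122.7, 3.4 and 5.5 without it (-0.08 log2, limma adjusted p = 0.982). Of its 8 values 5 were below the floor, and 1 array, Vdr-/- calcitriol, stood far above the rest.

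Pair by pair, the G2/M shift with IFN-gamma was present in 3 of the 4 pairs. In Vdr-/- cells without calcitriol 23 of 28 G2/M genes were higher and 3 lower with IFN-gamma, with a median of 0.83 log2. In Vdr-/- cells with calcitriol 12 were higher and 16 lower, with a median of -0.06 log2. In wild-type cells the counts were 23 higher and 3 lower without calcitriol (median 1.12 log2) and 23 higher and 4 lower with it (median 1.54 log2). The wild-type pair without calcitriol, with its median of 1.12 log2, had 3'/5' ratios of 1.04 with IFN-gamma and 1.11 without it. The Vdr-/- pair with calcitriol, with its median of -0.06 log2, had 1.07 with IFN-gamma and 0.853 without it. The part of RNA quality in these medians was not tested. The G1/S medians of the same 4 pairs were 0.02, -0.22, 0.35 and 0.29 log2, and leaving out the wild-type pair with calcitriol gave a G1/S median of -0.11. Without the 2 arrays of the highest 3'/5' ratios, 26 of 28 G2/M genes were above 0, with a median of 0.58 log2.

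**Figure D4:**
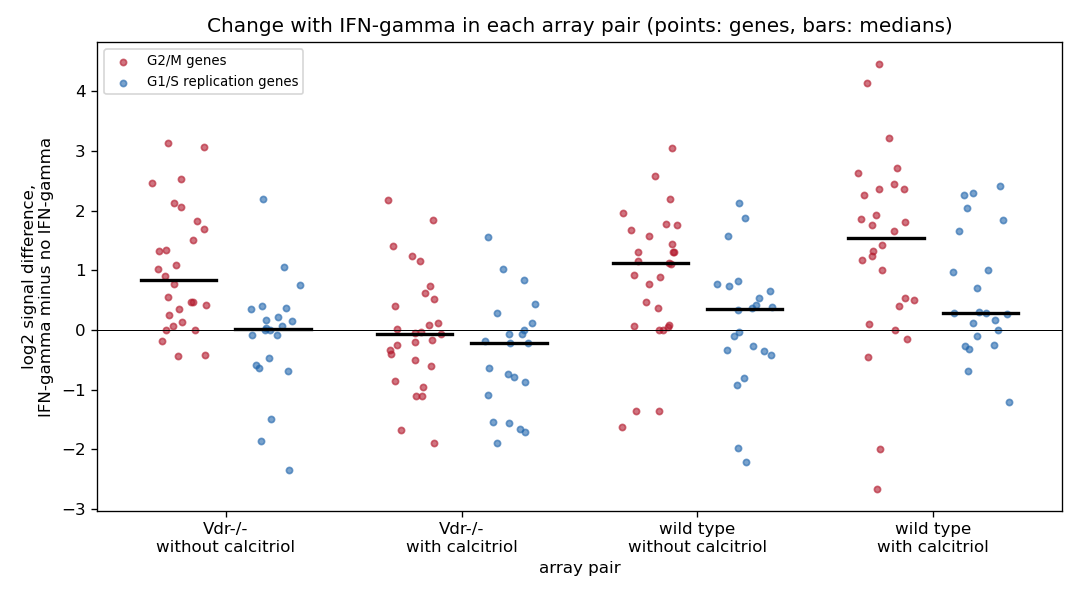
Log2 signal difference with minus without IFN-gamma (y axis) for each G2/M gene (red) and G1/S gene (blue) in each of the 4 array pairs (x axis), with black bars at the medians. The G2/M medians are 0.83, -0.06, 1.12 and 1.54 from left to right, and the G1/S medians lie between -0.22 and 0.35.

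Other cell cycle genes, which were not members, were read the same way. Of 36 further G2/M genes, 27 were above 0 with IFN-gamma, with a median of 0.36 log2, and of 28 further G1/S genes 12 were, with a median of -0.14 log2. In the single pairs the further G2/M genes were 12 higher and 21 lower in Vdr-/- cells without calcitriol (median -0.07 log2, against 0.83 for the members), and 22 higher and 11 lower with it (0.21, against -0.06). In wild-type cells they were 25 higher and 9 lower without calcitriol (0.41) and 24 higher and 12 lower with it (1.08). These differences between the lists were not tested. limma called 1 of the 36 and 0 of the 28, which had 1 gene at an unadjusted p under 0.05. The called gene was Cks1b, a small partner of cyclin-dependent kinases, at 1.28 log2 (limma adjusted p = 0.0179). Its signals were 458.7, 377.9, 322.8 and 788.4 with IFN-gamma, against 190, 305.7, 161.1 and 135.3 without it, with no overlap. Its adjusted p was 0.0175 without the Vdr-/- pair with calcitriol, and 0.517, 0.291 and 0.390 without the Vdr-/- pair lacking it, the wild-type pair lacking it and the wild-type pair with it. Of 7 listed markers of stromal cells, which also divide in culture, 5 were tested, and their summed signals were 269, 146.9, 148.4 and 164.3 with IFN-gamma, against 587.7, 290.5, 530.1 and 464.4 without it. Only the collagen gene Col3a1 of the 5 passed the test, and it fell by 2.02 log2 (limma adjusted p = 0.0308). Of the others 3 were below 0, and Lum was at 0.71 log2 and higher in 3 of 4 pairs. The part of stromal cells in the member values was not tested.

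Genotype gave no call. In Vdr-/- minus wild type, limma called 0 of 18058 probe sets at an adjusted p under 0.05, which is 0% of them. At an unadjusted p under 0.05 it had 306 higher and 305 lower, 1.69% each. Among the members the only unadjusted one was Cenpa, with -1.21 log2 (limma adjusted p = 0.999). Its signals were 92.8, 196.3, 117 and 47.2 in Vdr-/- cells with both agents, IFN-gamma, calcitriol and no agent, against 417.4, 205.5, 209 and 159 in wild type. Cenpa was lower in Vdr-/- in each of the 4 pairs, as were 6.05% of all tested probe sets. The checkpoint kinase Chek1 was higher in Vdr-/- in each pair, as were 4.93% of all, and the array labels of the untreated pair went against Vdr.

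In single pairs, each of 1 array against 1, the G2/M median of Vdr-/- minus wild type was -0.85 log2 with both agents (23 of 28 lower), 0.52 with IFN-gamma, 0.72 with calcitriol (22 of 28 higher) and 0.06 between the arrays labelled untreated. The G1/S medians were -0.71 with both agents (18 of 22 lower), -0.12, 0.48 and 0.15. Over the 4 pairs, the G2/M median was 0.34 log2 and the G1/S median -0.12, beside -0.03 for all tested probe sets. The G2/M value was -0.03 without the 2 arrays of the highest 3'/5' ratios, and -0.02 with the genotype labels of the untreated pair exchanged. It was also 0.02 without the pair of IFN-gamma arrays. The mice or cultures and the genotype cannot be told apart.

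With calcitriol in wild-type cells, no member passed the threshold. limma called 0 of 50 member genes, against 0.576% of all tested probe sets, while 5 G2/M and 5 G1/S genes were higher at an unadjusted p under 0.05 and 0 were lower. Of all tested probe sets 4.4% were higher and 5.88% lower at that level. The median log2 change was 0.62 for G2/M (23 of 28 above 0) and 0.35 for G1/S (16 of 22), beside 0.05 for all tested probe sets. Of other markers, 3 of 5 stromal, 2 of 2 erythroid and 1 of 7 macrophage genes were above 0, and their part was not tested. Higher signals in both wild-type pairs were found for 15 G2/M and 10 G1/S genes, 53.6% and 45.5%, against 29.6% of all tested probe sets. The lowest adjusted p of the members was that of the mitotic kinase Aurka, with signals of 102.1 and 139.5 with calcitriol (with and without IFN-gamma), against 13.9 and 8.6 without it. Both values without calcitriol were below the floor of 15.5, so the size of the change, 2.94 log2 (SE 0.893, limma adjusted p = 0.167), depends on it. Cdt1 had 1286.2 and 1140.5 with calcitriol, against 420.4 and 792.5 without it (1.07 log2, limma adjusted p = 0.194). The G2/M median was larger in the pair under IFN-gamma, at 1.03 log2 (21 of 28 higher), against 0.09 in the pair without it (15 higher, 8 lower). The pair without IFN-gamma holds the array with the 3'/5' ratio of 7.67.

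With calcitriol in Vdr-/- cells, which lack the receptor by their labels, limma again called 0 member genes, against 0.194% of all tested probe sets. At an unadjusted p under 0.05, 3 G1/S genes were higher and 1 lower, and 0 G2/M genes were either, where 4.28% of all tested probe sets were higher and 2.07% lower. The median change was 0.34 log2 for G2/M (21 of 28 above 0) and 0.21 for G1/S (13 of 22), beside -0.08 for all tested probe sets. In the same contrast 0 of 5 stromal markers were above 0 (median -1.06 log2) and 2 of 2 erythroid markers were. Of 7 macrophage markers 4 were above 0, and Cd68 rose by 1.66 log2 (limma adjusted p = 0.0416). The part of these cell types was not tested. The 2 pairs differed, with G2/M medians of -0.33 under IFN-gamma (11 higher, 16 lower) and 1.01 without it (24 higher, 3 lower). The pair without IFN-gamma holds the array labelled Vdr-/- untreated, with the 3'/5' ratio of 4.82 and a Vdr signal against its label. Higher signals in both pairs were found for 11 G2/M and 9 G1/S genes, 39.3% and 40.9%, against 23.4% of all tested probe sets. Ccne1 had 13.1 and 25.7 with calcitriol (with and without IFN-gamma), against 64.4 and 180.6 without it (-2.43 log2, limma adjusted p = 0.300). Pcna had 3598.9 and 6621.9 with calcitriol, against 2028.3 and 3143.4 without it (0.95 log2, limma adjusted p = 0.472). Neither change passed the test.

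The responses were not shown to differ between the genotypes. For the difference in calcitriol effect, Vdr-/- minus wild type, limma called 0 member genes, against 1.5% of all tested probe sets. At an unadjusted p under 0.05, 3 G1/S genes and 1 G2/M gene were higher, and 4 G1/S genes and 1 G2/M gene were lower, where 7.08% and 5.08% of all tested probe sets were higher and lower. The medians were -0.18 log2 for G1/S (10 of 22 above 0) and -0.44 for G2/M (12 of 28), beside -0.16 and 44.8% above 0 for all tested probe sets. The G2/M median was 0.06 log2 without the wild-type pair under IFN-gamma and 0.38 without the Vdr-/- pair under it. It was -0.57 and -0.89 without the wild-type and the Vdr-/- pair lacking IFN-gamma, and the G1/S median ran between -0.55 and -0.0011. Stromal markers were above 0 in 0 of 5 in this contrast, and Cd68 and Itgam of 7 macrophage markers were called higher, whose part was not tested. For the difference in IFN-gamma effect limma called 0 of 18058 probe sets (0%). At an unadjusted p under 0.05 it had 299 higher (1.66%) and 336 lower (1.86%), among them 1 G1/S gene higher, and 2 G1/S and 4 G2/M genes lower. The medians were -0.73 log2 for G1/S (3 of 22 above 0) and -0.77 for G2/M (9 of 28), beside 0.01 and 50.3% above 0 for all tested probe sets. Among representative probe sets of the members, the lowest unadjusted p-values were those of Rrm2, with a difference of -2.13 log2, and Cdk1, with -2.11 (limma adjusted p = 0.996 for both). Other tested probe sets of Rrm2 were at -3.72 and 0.60 log2. Those of Cdc20 were at -2.85, with a lower unadjusted p than Rrm2, and 0.76 log2. The G2/M median of the difference in IFN-gamma effect was 0.16 log2 without the Vdr-/- pair with calcitriol.

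Probe sets of the same gene differed in their pattern, and low signals were common. Of the 27 members with several probe sets, the lowest correlation between any 2 of them across the 8 arrays was above 0.5 in 4 genes and below 0 in 13. These correlations over 8 arrays describe the probe sets, which share arrays and scaling. Among the representatives, 17.4% of the G2/M values and 9.78% of the G1/S values were below the floor, and 26 of 51 genes were below it on at least 1 array. A change of such a gene on the log2 scale is limited by the floor.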

How the data were processed

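Total RNA was measured on 8 one-colour arrays. The values deposited by the authors are linear intensity signals per probe set, and their 2% trimmed means lie between 149.979 and 149.983 on all arrays, as after scaling to 1 target. Software, detection calls and doses were not given in the sources used here. Peritoneal cells also appear in the labels, while the source fields name only bone marrow derived macrophages. Genes were named from the platform annotation, and 64 control probe sets of 22690 were set aside.

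A floor at the 25th percentile of all signals (15.5) was applied before log2. Tests covered the 18058 probe sets that reached the median of all signals (59.1) on at least 1 array. Over the tested probe sets 15.5% of values were at the floor, so signal over background limits precision. limma 3.58.1 in R 4.3.3 gave two-sided moderated tests with an intensity trend, and p-values were adjusted by Benjamini-Hochberg across the 18058 probe sets (threshold 0.05). For IFN-gamma and genotype the 4 array pairs were blocks, leaving 3 residual degrees of freedom. Calcitriol and the differences between genotypes used terms within each genotype, leaving 2. The p-values measure only the spread between these arrays, since the labels name no separate animals. Moderation combines each probe set's own spread with one pooled over the tested probe sets by intensity. A call therefore does not rest on the disagreement of its own array pairs alone. The fits were run on simulated data with independent noise and no floor, which cannot speak to low signals or truncated RNA on these arrays.

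Full values were given for members called in any of the 6 contrasts and for Mki67, Top2a, Ccnb2, Cdk1, Ube2c, Pcna, Mcm2, Mcm5, Ccne1, Rrm2, Tk1 and E2f1. Other cell cycle genes were named where called. Aurka, Cdt1, Cdc6, Gmnn, Cenpa, Chek1, Cdc20, Hmmr, Ccna2's representative probe set, Col3a1 and the genes named from counts were chosen after their values were seen. So were the further probe sets of named members. The members and lists were chosen with earlier results of these data known. Alternatives were quantile normalization, other filters and floors, no trend, additive terms, left-out arrays or pairs, exchanged labels, and averaging all probe sets of a gene. Plots used matplotlib 3.10.9 in Python 3.11.15.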

Additional observations from a re-analysis of the deposited data

Results flagged for a closer look

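For 8 members, the array pairs of Vdr-/- cells moved in the opposite direction to those of wild-type cells on the representative probe set. With calcitriol the pattern was found in 2 of 28 G2/M genes (7.14%) and 4 of 22 G1/S genes (18.2%), against 18.1% of all tested probe sets. For IFN-gamma it was 2 of 22 G1/S genes (9.09%) and 0 of 28 G2/M genes, against 8.39%. The differences below are Vdr-/- minus wild type, from limma's nested fit, and none passed the adjusted threshold of 0.05.

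With calcitriol, Ccne1 was lower in both Vdr-/- pairs and higher in both wild-type pairs, a difference of -3.31 log2 (SE 1.05, limma adjusted p = 0.138). Cdt1 did the same with -1.36 log2 (limma adjusted p = 0.203), as did the chromosome motor Kif22 with -1.14 log2 (0.689). The large subunit of ribonucleotide reductase, Rrm1, was higher in both Vdr-/- pairs and lower in both wild-type pairs, a difference of 2.47 log2 (limma adjusted p = 0.249). E2f1 had 2.56 log2 (limma adjusted p = 0.282) and the cytokinesis regulator Racgap1 had 2.22 log2 (0.372) in the same direction. On other tested probe sets, Kif22 was higher with calcitriol in 2 and in 1 of the 2 Vdr-/- pairs, and Racgap1 in 0 of 2. These go against the directions just given, while those of Cdt1, Rrm1 and E2f1 kept them in Vdr-/- cells.

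With IFN-gamma, the DNA ligase gene Lig1 was higher in both Vdr-/- pairs and lower in both wild-type pairs, a difference of 2.65 log2 (limma adjusted p = 0.996). Prim1 ran the other way, with -1.24 log2 (limma adjusted p = 0.996). The other Prim1 probe set was higher with IFN-gamma in 0 of the 4 pairs. Each of these genes rests on pairs that include the arrays labelled untreated, where Vdr goes against the labels.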

How the results depend on the processing

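No paired analysis was possible because the labels give no replicate numbers that tie single cultures. The array pairs used as blocks share genotype or treatment only. For IFN-gamma, the 619 called probe sets became 80 without a filter, 70 without the intensity trend, 394 with additive terms, 53 without the 2 arrays of the highest 3'/5' ratios, and 99 to 420 with a pair left out. All fits without these 2 arrays, here and above, also used additive terms, so their nearest comparison is the additive fit of all arrays. The 3 called members became 0 without a filter, 0 without the trend, 0 without those 2 arrays, and 0 to 2 with a pair left out. With the stricter filter, 5 of 10 G1/S genes and 11 of 12 G2/M genes were above 0, and the G1/S median was -0.13 log2 with the mean over probe sets. Genotype gave 7 called probe sets with the genotype labels of the untreated pair exchanged. Calcitriol in wild type gave 58 with quantile normalization, 5 with the lower floor, 20 with labels exchanged, and 0 without a filter, with the stricter filter, without the trend, without the 2 arrays and with either pair left out, against 104. Its G1/S median was 0.69 with the stricter filter, 0.93 without the 2 arrays and 0.33 to 0.74 with a pair left out. In Vdr-/- cells calcitriol gave 18, 1 and 58 with quantile normalization, the lower floor and the higher floor, and 0 under the other settings just named and with labels exchanged, against 35. Its G1/S median was 0.47 without the 2 arrays, 0.54 with labels exchanged and 0.23 to 0.49 with a pair left out. The difference in calcitriol effect gave 100 with the lower floor and 0 without a filter, with the stricter filter, without the trend, without the 2 arrays, with labels exchanged and with any pair left out, against 271. The difference in IFN-gamma effect gave 109 with labels exchanged, and its G1/S median was -0.93 to -0.44 with a pair left out. The wild-type IFN-gamma + calcitriol array held the highest signal of 5 of 10 G1/S and 10 of 12 G2/M genes with the stricter filter, and of 5 G1/S genes with the mean over probe sets. The count over every tested probe set was chosen after seeing the data.

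Among single genes, 13 values changed sign, none of them called, 41 lost the adjusted threshold and 364 values kept both direction and side. The IFN-gamma change of Mcm2 was 0.17 log2 without the 2 arrays, 0.50 with the mean over probe sets and -0.47 to 0.038 with a pair left out. That of Mcm5 was -0.033 with the higher floor, -0.30 without the 2 arrays and -0.43 to 0.87 with a pair left out. Ccne1 gave 0.49 without the 2 arrays, and Tk1 gave 0.33 with the lower floor and -0.63 to 0.52 with a pair left out. Calcitriol in wild type gave -0.10 for Cdt1 with the mean over probe sets. With labels exchanged, Kif22 gave 0.032 for the difference in calcitriol effect and Prim1 gave 0.76 for that in IFN-gamma effect. Fewer arrays or more probe sets tested lower the calls by construction, and other causes were not tested. Low signals, 1 array a group and unstated doses and times limit all values.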
